A study of Mus musculus with 9 samples.

Results

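Genes that control pre-mRNA splicing were followed across whole kidneys of 3 genotypes at E15.5. They were chosen by gene symbol from 11 families: the SR proteins (*Srsf*), *Tra2*, the SR-related matrix proteins (*Srrm*), the CLK kinases, the LUC7-like proteins, the hnRNP proteins (*Hnrnp*), *Ptbp*, *Mbnl*, *Rbfox*, *Celf* and the numbered *Rbm* genes. Of the 24138 loci in the table, 98 carried such a symbol. A mean of at least 5 FPKM (fragments per kilobase of transcript, scaled to the size of the library) over the 9 libraries was required, which 78 genes met, out of 9978 loci that met it in all. By family there were 10 SR proteins, 2 *Tra2* genes, 2 *Srrm* genes, 4 CLK kinases, 3 LUC7-like genes, 20 hnRNP genes, 3 *Ptbp* genes, 3 *Mbnl* genes, 1 *Rbfox* gene, 1 *Celf* gene and 29 *Rbm* genes. The choice used the symbol and the mean over all libraries, and no difference between genotypes.

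SR proteins bind exonic enhancer sequences through RNA recognition motifs and recruit the splicing machinery through domains rich in arginine and serine, which the CLK kinases phosphorylate. The hnRNP proteins coat nascent transcripts and often act against SR proteins at the same exons. The LUC7-like proteins associate with the U1 particle that reads the 5′ splice site. Many of these genes limit their own mRNA by including or skipping an exon that leads to nonsense-mediated decay. In the embryonic kidney, epithelial splicing regulators such as *Esrp1* are known for a role in the branching ureteric tree.

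RNA was sequenced from 9 kidneys, 3 of each genotype, collected from 3 crosses. WT kidneys were *Ntn1*fl/fl without Cre. HET kidneys were *Foxd1*GC/+;*Ntn1*fl/+ and MUT kidneys were *Foxd1*GC/+;*Ntn1*fl/fl, so both carried the GFP-Cre insertion that occupies 1 allele of *Foxd1* and deletes floxed *Ntn1* in the Foxd1+ stroma and its descendants. MUT and HET thus share the loss of 1 *Foxd1* allele, and the study compared them with each other for that reason, whereas each differs from WT in Cre as well. Libraries are named by genotype and number, and values given in threes are in the order of libraries 1, 2 and 3. FPKM hold no read numbers, so no counting interval can be given. The spacing of the lowest FPKM gives a relative depth, with WT-1 set to 1, of 0.57 in WT-2, 0.61 in MUT-3 and 0.91 to 1.3 in the other libraries. The kidneys of a genotype are described as biological replicates, and which cross each came from is not given in the sources used here. In whole kidney, fewer cells of a type and less RNA per cell cannot be told apart. FPKM of a gene also sums its transcripts, so splicing itself is not seen in these values.

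The labelled tissue and genotypes were checked first. Markers of nephron progenitors (*Six2*, 57.8 to 107 FPKM), stromal progenitors (*Tcf21*, 137 to 185 FPKM) and ureteric bud (*Calb1*, 67.9 to 106 FPKM) were present in all 9 libraries. *Ntn1* (chr11:68209364-68386826) measured 26.1, 28.9 and 17.8 FPKM in WT, 12.3, 12.0 and 16.5 in HET, and 10.8, 16.5 and 11.0 in MUT. Every WT library was above every HET and MUT library. HET and MUT overlapped, with a log2 fold change of -0.10±0.20 and an exact two-sided permutation p of 0.5 (n = 3 each), and MUT-2 was at the level of the highest HET library. *Foxd1* (chr13:98354245-98356705) measured 33.7, 33.4 and 25.8 FPKM in WT, 21.7, 20.2 and 21.5 in HET, and 24.8, 22.5 and 24.3 in MUT, with all Cre libraries below all WT libraries. Exact two-sided permutation tests gave p = 0.1 for each gene against WT, the smallest value that 3 libraries against 3 allow.

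Several libraries stood apart in genes that are not of the kidney lineages listed above. The 8 liver markers summed to 793 FPKM in HET-2, with *Alb* at 244 FPKM, against 33.6 to 59.4 in the other libraries, and its red cell markers summed to 2346 against 1307 to 1685. In HET-3 the 6 markers of skeletal and heart muscle summed to 133 FPKM against 5.28 to 15.3 elsewhere, with *Actc1* most abundant. Adrenal markers were near 0 throughout, with sums of 0.604 to 1.02 FPKM. MUT-2 had the lowest sum of 4 nuclear RNAs, 45.2 FPKM against 66.8 to 125, and *Malat1* measured 13.0 FPKM there against 25.8 to 57.0. MUT-1 had the highest sum of 5 immediate-early genes, 138 FPKM against 61.1 to 96.5. HET-3 and MUT-1 carried *Xist* (187 and 173 FPKM) and little or no Y-linked RNA, while the other 7 libraries carried Y-linked RNA and at most 1.25 FPKM of *Xist*. Only 4 of the 78 genes are on chromosome X. The part of these differences in the results below was not tested except where values without a library are given.

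The most abundant family was hnRNP, with a median of 206 FPKM over the family's members and the highest single level, *Hnrnpa1*, at a mean of 709 FPKM. SR proteins followed with a median of 143 FPKM and *Tra2* with 112 FPKM. The LUC7-like, *Srrm*, *Celf*, *Ptbp* and CLK families had medians of 63.3, 60.5, 60.4, 56.5 and 45.3 FPKM, and *Rbfox*, *Rbm* and *Mbnl* had 36.3, 26.5 and 18.3 FPKM. The median over all 9978 loci was 18.7 FPKM. *Rbm48*, with a mean of 5.54 FPKM, lay just inside the minimum, and *Rbm41* (4.86 FPKM) and *Celf2* (4.10 FPKM) lay just outside it. The 20 genes below the minimum also included the neural regulators *Srrm4*, *Celf3* and *Rbfox3*, at means of 0.114, 0.0636 and 0.255 FPKM, and 2 rows of *Rbm31y* that are listed at 0 in every library. Together the 78 genes took between 1.49% (MUT-2) and 1.84% (HET-3) of a library's summed FPKM.

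The comparison of MUT with HET sets kidneys with 2 floxed *Ntn1* alleles beside those with 1, all with Cre, although gene-level *Ntn1* FPKM did not separate these genotypes. On the log2(FPKM + 1) scale, on which changes of genes with low FPKM are understated, 53 of the 78 genes were lower in MUT and 25 higher, with a median log2 fold change of -0.10. Over all loci tested 54.1% were lower and 45.8% higher, with a median of -0.02. No gene of the set passed an adjusted p of 0.05 (limma with Benjamini-Hochberg adjustment), the smallest adjusted p being 0.842, and none of the 9978 loci did (0%). At an unadjusted p under 0.05, 6 of the 78 were lower and 0 higher, where 2.13% of all loci were lower and 1.76% higher, 389 loci (3.9%) in all. The 6 were *Luc7l*, *Mbnl1*, *Srsf11*, *Rbm5*, *Clk3* and *Clk4*, whose unadjusted limma p ran from 0.0311 to 0.0454. In 10 genes every MUT library was below every HET library, and in 4 every MUT library was above, against 4.44% and 5.1% of all loci. Without MUT-2 the median of the set was -0.03 and 0 genes were lower at an unadjusted p under 0.05, and without HET-1 that count was also 0. It was 2 without HET-2, 3 without WT-2 and 10 without MUT-3. The count of higher genes, 0 here, was 2 with the 6 MUT and HET libraries only, with the replicate block or under GC correction, and 3 without WT-3. The shares of all loci above are from the fit on all 9 libraries. Those of the alternatives are not given here, so the counts under them have no baseline.

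Against WT, 58 of the 78 genes were lower in MUT and 20 higher, with a median of -0.07. Over all loci 51.3% were lower and 48.7% higher, with a median of 0.00. Corrected for GC content and transcript length together, the split was 50 lower and 28 higher. In HET against WT, 46 were higher and 32 lower, with a median of 0.01, where 52.5% of all loci were higher and 47.5% lower. That split turned with the scaling, to 31 higher and 47 lower under quantile normalization and 57 higher and 21 lower under GC correction. Neither comparison gave a gene of the set at an adjusted p under 0.05 or at an unadjusted p under 0.05 in limma with all 9 libraries and no further term. For MUT against WT the unadjusted count was 3 lower with the replicate number as a block, 1 lower with the block and GC correction, and with 1 library left out it was at most 6 lower and 2 higher, both without WT-1. For HET against WT it was 1 higher under GC correction, and 2 lower and 1 higher without HET-3. Without WT-2 the count of higher genes was also 1. Shares of all loci in these alternatives are not given here. Over all loci, in the fit on all 9 libraries with no further term, the adjusted count was 0 in both comparisons. The unadjusted count was 85 (0.852%, with 0.411% higher and 0.441% lower) for MUT against WT and 78 (0.782%, with 0.501% higher and 0.281% lower) for HET against WT. MUT lay wholly below WT in 2 genes of the set and wholly above it in 0, against 1.32% and 1.3% of all loci, and HET lay wholly above WT in 3 and wholly below in 0, against 2.06% and 0.952%. The 3 comparisons share libraries, so their values are set side by side and are not separate evidence of one another. Leaving out MUT-2 took the MUT against WT split to 47 lower and 31 higher, and its median to -0.02. Leaving out HET-2 took the HET against WT split to 58 higher and 20 lower, and leaving out WT-1 took it to 35 higher and 43 lower.

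**Figure D1:**
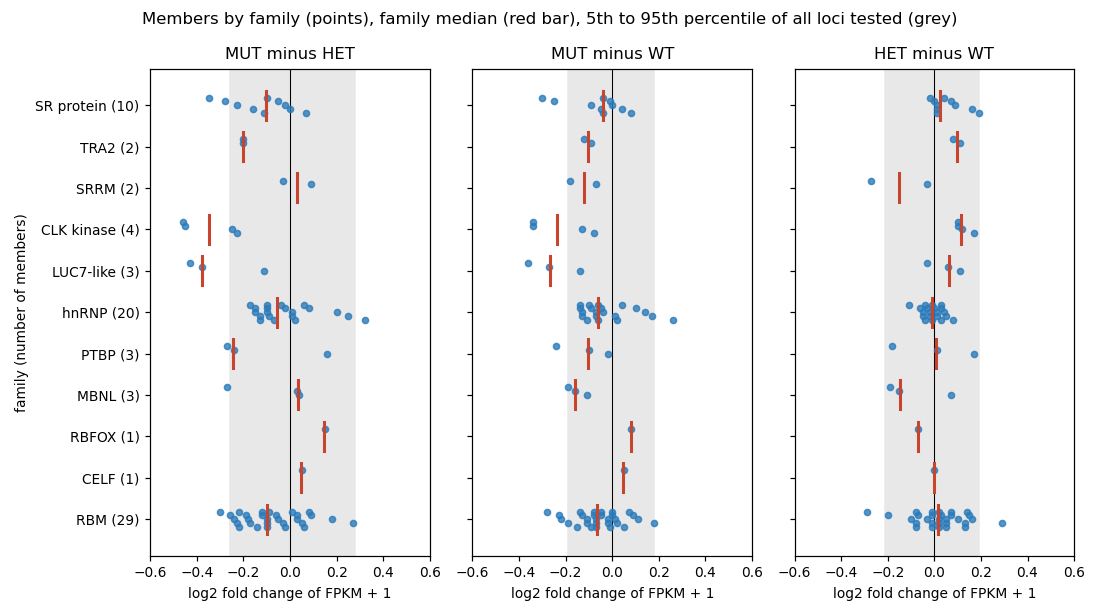
Log2 fold change of FPKM + 1 (horizontal axis) of each of the 78 genes (points) by family (vertical axis), with the family median as a red bar and the 5th to 95th percentile of all 9978 loci in grey, for MUT against HET, MUT against WT and HET against WT. *Clk1*, *Clk4*, *Luc7l* and *Luc7l3* lie below the grey band in MUT against HET, and most SR, hnRNP and *Rbm* genes lie inside it.

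The CLK kinases and the LUC7-like genes had the lowest family medians in MUT against HET, -0.35 over 4 genes and -0.38 over 3 genes. *Clk4*, a kinase of SR proteins, measured 21.1, 24.7 and 35.5 FPKM in WT, 29.5, 26.5 and 30.9 in HET, and 20.5, 15.7 and 27.5 in MUT. Its highest library was WT-3 and its lowest MUT-2, and MUT-3 lay within the HET range. The log2 fold change of MUT against HET was -0.46±0.21 (standard error from limma). *Clk1*, which regulates its own splicing as well as SR proteins, measured 49.7, 75.0 and 92.7 FPKM in WT, 73.8, 71.5 and 81.4 in HET, and 49.8, 44.1 and 75.9 in MUT. It had the same highest and lowest libraries as *Clk4*, the WT range held all HET libraries, and the log2 fold change was -0.45±0.23. Without MUT-2 these values were -0.27 for *Clk4* and -0.29 for *Clk1*.

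*Clk3* was the most even of the kinases, with 24.8, 26.0 and 26.7 FPKM in WT, 29.4, 29.6 and 24.5 in HET, and 23.9, 22.5 and 24.1 in MUT. Every MUT library was below every HET and every WT library, by a narrow margin (24.1 in MUT-3 against 24.5 in HET-3), and the log2 fold change was -0.23±0.10 against HET and -0.13±0.10 against WT. *Clk2*, another SR kinase, is at a locus joined with *Scamp3*, so reads of both genes could enter its value. It measured 62.7, 67.3 and 59.5 FPKM in WT, 76.7, 76.3 and 61.3 in HET, and 62.1, 53.7 and 64.2 in MUT, with HET-1 and HET-2 above all other libraries. MUT against HET was -0.25±0.12 for *Clk2*, and HET against WT was 0.17±0.12, with 0.11 without HET-1 and 0.27 without HET-3.

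*Luc7l3*, a U1-associated protein, varied most in its family. It measured 55.6, 56.7 and 92.6 FPKM in WT, 65.5, 64.5 and 79.0 in HET, and 47.8, 44.8 and 63.1 in MUT. All MUT libraries were below all HET libraries, MUT-3 was within the WT range, and WT-3 was the highest of the 9. The log2 fold change was -0.43±0.20 against HET and -0.36±0.20 against WT. *Luc7l* measured 41.7, 45.7 and 61.0 FPKM in WT, 55.7, 49.5 and 53.4 in HET, and 42.8, 34.0 and 45.4 in MUT. MUT and HET did not overlap here either, while MUT and WT did, and the log2 fold change was -0.38±0.15 against HET. *Luc7l2* measured 69.4, 57.4 and 76.8 FPKM in WT, 62.6, 62.3 and 73.2 in HET, and 70.2, 53.0 and 60.7 in MUT, and its genotypes overlapped with a log2 fold change of -0.11±0.14. Each gene of this family was highest in WT-3 and lowest in MUT-2. Without WT-3, MUT against WT was -0.13 for *Luc7l3* and -0.11 for *Luc7l*. Without MUT-2, MUT against HET was -0.33 and -0.26 for these genes, and the family median was -0.26, while the CLK median was -0.24. Against WT the family medians were -0.27 for the LUC7-like genes, or -0.109 without WT-3, and -0.24 for the CLK kinases, or -0.124 without MUT-2.

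**Figure D2:**
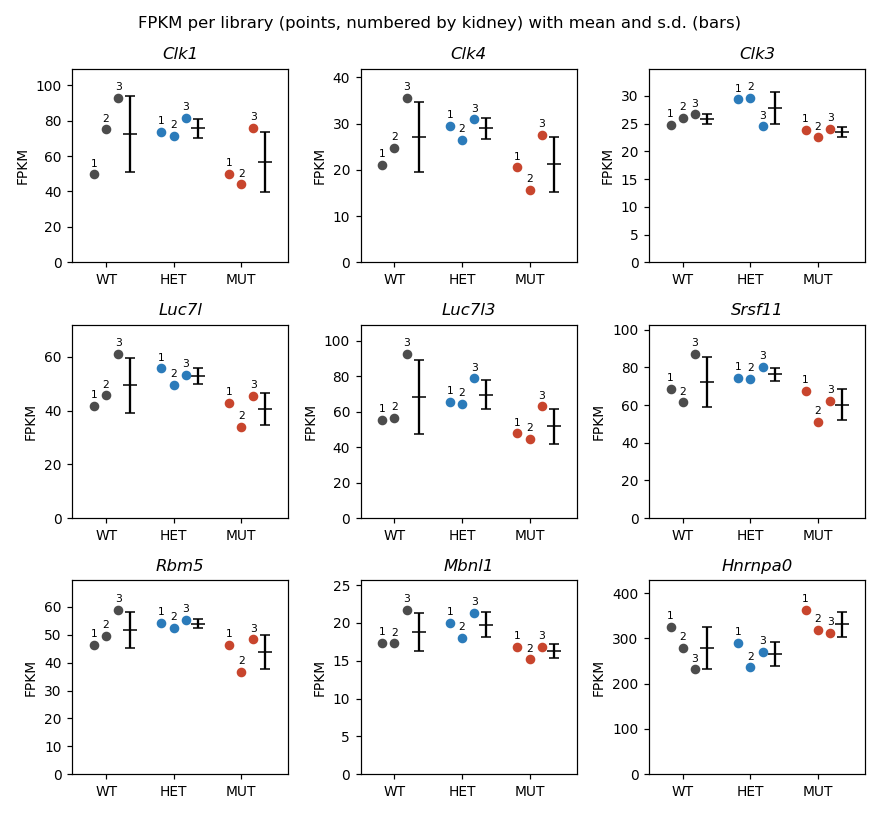
FPKM (vertical axes, from 0) of 9 genes in WT, HET and MUT kidneys, with each library a numbered point and bars for the mean and s.d. of 3 libraries. MUT-2 was the lowest library in each gene but *Hnrnpa0*, and WT-3 the highest in each but *Clk3* and *Hnrnpa0*.

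The promoters of 3 of these genes are shown. The family medians of the CLK and LUC7-like genes were both highest in WT-3 and lowest in MUT-2. This order was not particular to them, as the SR, hnRNP, *Ptbp*, *Mbnl* and *Rbm* medians had it too. In WT-3 and MUT-2 the median deviation was 0.35 and -0.28 for *Ptbp* and 0.09 and -0.15 for *Rbm*. The *Tra2*, *Srrm*, *Rbfox* and *Celf* medians had another highest or lowest library. Not every gene followed its median, as *Clk2* was highest in HET-1 and *Clk3* in HET-2. Windows of 250 bases before to 50 bases after the annotated start were taken from RefSeq on GRCm38.p6, where 68 gene symbols of the set matched with 87 promoters. Capitals mark exact matches, on either strand, to 5 strings, namely CCAAT, the TATA box TATAAA, the ETS core CCGGAAG, the cyclic AMP response element TGACGTCA and the YY1 string AAGATGGC, none of which overlaps another within a window shown.
*Clk4*, chr11:51262864-51263163, plus strand: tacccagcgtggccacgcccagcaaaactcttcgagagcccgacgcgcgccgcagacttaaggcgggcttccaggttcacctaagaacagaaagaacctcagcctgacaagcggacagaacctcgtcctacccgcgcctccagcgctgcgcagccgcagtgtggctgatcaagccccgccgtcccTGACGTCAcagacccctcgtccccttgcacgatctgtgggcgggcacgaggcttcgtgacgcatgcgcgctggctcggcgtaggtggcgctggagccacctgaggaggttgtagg
*Clk3*, chr9:57765065-57765364, minus strand: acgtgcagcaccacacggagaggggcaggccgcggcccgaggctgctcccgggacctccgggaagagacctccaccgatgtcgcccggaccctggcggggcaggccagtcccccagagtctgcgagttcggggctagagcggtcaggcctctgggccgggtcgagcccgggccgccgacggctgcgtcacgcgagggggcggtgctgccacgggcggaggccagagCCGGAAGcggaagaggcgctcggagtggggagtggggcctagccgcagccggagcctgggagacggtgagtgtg
*Luc7l3*, chr11:94321914-94322213, minus strand: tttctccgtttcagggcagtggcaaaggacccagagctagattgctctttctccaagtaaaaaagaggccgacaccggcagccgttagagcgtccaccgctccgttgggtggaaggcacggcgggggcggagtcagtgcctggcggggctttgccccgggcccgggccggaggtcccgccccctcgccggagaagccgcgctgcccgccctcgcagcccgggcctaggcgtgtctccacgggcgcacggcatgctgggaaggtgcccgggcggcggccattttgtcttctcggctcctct
*Clk4* held the response element string at -65 from the start, *Clk3* the ETS core at -24, and *Luc7l3* none of the 5, so the 3 windows shared no string. Over the promoters of the set that were kept, 46% held CCAAT, against 37.4% of the 32851 RefSeq promoters kept in the same way. The ETS core was in 18.4% against 8.86%, TATAAA in 10.3% against 13.6%, AAGATGGC in 5.75% against 2.75% and TGACGTCA in 2.3% against 1.79%. The promoters of the set were richer in GC, with a median of 62.7% against 52.7%, and the table of all promoters includes genes of every kind. A string match is a description of the sequence and not a binding site.

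Among the 10 SR proteins 8 were lower and 2 higher in MUT than in HET, where 54.1% of all loci were lower, with a median of -0.10, or -0.034 under quantile normalization. One was lower at an unadjusted p under 0.05, against 2.13% of all loci. *Srsf11*, an SR-related protein, measured 68.6, 61.4 and 87.0 FPKM in WT, 74.5, 74.0 and 80.4 in HET, and 67.4, 51.1 and 62.1 in MUT. All MUT libraries lay below all HET libraries and 2 of them within the WT range, and the log2 fold change against HET was -0.35±0.15. *Srsf5* measured 181, 242 and 250 FPKM in WT, 218, 218 and 219 in HET, and 195, 136 and 220 in MUT. The 3 HET libraries were nearly equal, MUT-3 matched them, and MUT-2 was the lowest of all 9, so that the log2 fold change of -0.28±0.18 was -0.08 without MUT-2.

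*Srsf2*, the speckle protein SC35 and the most abundant SR gene, measured 346, 324 and 334 FPKM in WT, 391, 380 and 351 in HET, and 364, 306 and 337 in MUT. Each HET library was above each WT library, and MUT overlapped both (log2 fold change -0.16±0.12 against HET, and 0.16±0.12 for HET against WT). *Srsf4*, an SR protein with a long RS domain, measured 58.1, 57.6 and 45.8 FPKM in WT, 65.9, 67.8 and 51.1 in HET, and 55.3, 44.3 and 58.0 in MUT. Here too the first 2 HET libraries were the highest, and HET against WT was 0.19±0.15, from 0.08 without WT-3 to 0.32 without HET-3. Across the family, 9 of 10 SR genes had a HET mean above the WT mean on the log2 scale, where 52.5% of all loci were higher. The family median was 0.02 and turned to -0.035 under quantile normalization. It was 0.092 with the replicate block and GC correction and 0.119 without WT-3.

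*Srsf3*, the smallest SR protein, which also acts in mRNA export, measured 210, 243 and 279 FPKM in WT, 261, 227 and 261 in HET, and 214, 282 and 259 in MUT. MUT-2, the lowest library for so many of the other genes, was its highest. The genotypes overlapped fully and MUT against HET was 0.00±0.15. *Srsf9*, at 119, 120 and 100 FPKM in WT, 123, 109 and 109 in HET, and 117, 115 and 126 in MUT, was one of the 2 SR genes with a positive value, 0.07±0.12. That value ran from 0.033 without MUT-3 to 0.128 without HET-1, and was 0.178 corrected for GC content and length together. The remaining 4, *Srsf1*, *Srsf6*, *Srsf7* and *Srsf10*, had log2 fold changes from -0.11 (*Srsf7*) to -0.02 (*Srsf1*).

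The TRA2 proteins bind GA-rich exonic enhancers. *Tra2a* measured 82.6, 97.9 and 124 FPKM in WT, 115, 94.2 and 111 in HET, and 87.5, 86.9 and 103 in MUT. *Tra2b* measured 96.1, 131 and 144 FPKM in WT, 141, 117 and 138 in HET, and 106, 103 and 137 in MUT. Both were lowest in WT-1 and highest in WT-3, so the WT libraries spanned all others, and MUT against HET was -0.20±0.16 for *Tra2a* and -0.20±0.17 for *Tra2b*. The matrix proteins SRRM1 and SRRM2 help join exonic enhancers to the spliceosome. *Srrm1* measured 63.8, 62.5 and 54.8 FPKM in WT, 58.7, 56.8 and 61.2 in HET, and 68.4, 44.0 and 63.1 in MUT. *Srrm2* measured 83.3, 58.3 and 62.3 FPKM in WT, 51.3, 51.5 and 64.8 in HET, and 83.4, 42.6 and 58.2 in MUT. For both genes MUT-1 was the highest and MUT-2 the lowest of the 9 libraries. The MUT against HET values, -0.03±0.15 for *Srrm1* and 0.09±0.22 for *Srrm2*, changed sign with the library left out, and the family median ran from -0.16 without MUT-1 to 0.24 without MUT-2.

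Of the 20 hnRNP genes 12 were lower and 8 higher in MUT than in HET, where 54.1% of all loci were lower. None was at an unadjusted p under 0.05 in limma, against 3.9% of all loci, and the family median was -0.055. Without MUT-2 the median was 0.02, and under quantile normalization it was 0.00. *Hnrnpa0*, which binds AU-rich elements of mRNA, had the highest log2 fold change of the 78, 0.32±0.15 against HET. It measured 326, 279 and 232 FPKM in WT, 290, 236 and 271 in HET, and 363, 319 and 312 in MUT. All MUT libraries were above all HET libraries, and WT-1 lay among the MUT libraries. *Hnrnpd* (AUF1), another protein of AU-rich elements, measured 62.4, 59.5 and 45.9 FPKM in WT, 51.7, 46.5 and 56.2 in HET, and 67.3, 56.4 and 60.9 in MUT. *Hnrnpul2* measured 68.7, 55.5 and 49.8 FPKM in WT, 55.7, 54.7 and 58.6 in HET, and 73.0, 63.0 and 58.8 in MUT. In both genes MUT lay just above HET without overlap, with log2 fold changes of 0.25±0.14 and 0.20±0.13, and each was lowest in WT-3, the library that was highest for the CLK and LUC7-like genes named above other than *Clk2* and *Clk3*.

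The most abundant hnRNP genes showed no separation of genotypes. *Hnrnpa1*, an antagonist of SR proteins at many exons, whose locus is joined with the gene model *Gm5643*, measured 621, 804 and 765 FPKM in WT, 764, 677 and 738 in HET, and 668, 546 and 802 in MUT. *Hnrnpa2b1* measured 421, 447 and 576 FPKM in WT, 462, 449 and 532 in HET, and 435, 390 and 473 in MUT. *Hnrnpk*, a poly(C)-binding protein, measured 380, 457 and 498 FPKM in WT, 427, 410 and 474 in HET, and 400, 374 and 463 in MUT. MUT-2 was the lowest library for each, and the log2 fold changes against HET were -0.13±0.16, -0.15±0.15 and -0.09±0.14. Without MUT-2 that of *Hnrnpa1* was 0.01 and that of *Hnrnpk* -0.02.

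*Hnrnpm* was the one hnRNP gene of 20 (5%) with every MUT library below every HET library, against 4.44% of all loci, and 3 (15%) had every MUT library above, against 5.1%. It measured 208, 220 and 233 FPKM in WT, 236, 224 and 238 in HET, and 221, 181 and 223 in MUT, with MUT-1 and MUT-3 within the WT range and a log2 fold change of -0.17±0.12, or -0.07 without MUT-2. *Hnrnph3*, a protein of G-rich sequences, measured 33.1, 35.1 and 38.2 FPKM in WT, 39.9, 34.4 and 36.0 in HET, and 33.8, 30.5 and 35.0 in MUT, for a log2 fold change of -0.15±0.11, or -0.09 without either HET-1 or MUT-2. *Hnrnpdl*, a relative of *Hnrnpd*, measured 122, 136 and 153 FPKM in WT, 125, 126 and 146 in HET, and 127, 108 and 137 in MUT. Both genes overlapped between genotypes, and the *Hnrnpdl* value of -0.10±0.13 was 0.00 without MUT-2.

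The PTB proteins repress exons through pyrimidine-rich sequences, with PTBP1 in most cells and PTBP2 best known in neurons. *Ptbp1*, whose interval in the table is shared with many other genes, measured 277, 322 and 279 FPKM in WT, 332, 346 and 306 in HET, and 294, 218 and 312 in MUT. *Ptbp2* measured 31.1, 34.4 and 43.6 FPKM in WT, 35.4, 33.0 and 40.5 in HET, and 29.3, 27.8 and 34.5 in MUT. *Ptbp3* measured 59.4, 46.9 and 71.7 FPKM in WT, 47.1, 43.9 and 66.1 in HET, and 61.4, 61.1 and 50.7 in MUT. MUT-2 was lowest for the first 2 genes but not for *Ptbp3*, which was lowest in HET-2. The log2 fold changes of MUT against HET were -0.27±0.15, -0.24±0.14 and 0.16±0.18, and that of *Ptbp1*, and with it the family median, was -0.11 without MUT-2. HET-2, in which *Ptbp1* was highest, was also the library with liver and neuronal markers (7 neuronal markers summed to 22.7 FPKM there and to 7.52 to 12.2 elsewhere), and their part in these values was not tested.

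Muscleblind proteins, known for driving the change from fetal to adult splicing in muscle, are represented by 3 genes. *Mbnl1* measured 17.4, 17.3 and 21.7 FPKM in WT, 20.0, 18.0 and 21.3 in HET, and 16.8, 15.2 and 16.8 in MUT. Every MUT library was below every HET and WT library, as for *Clk3*, and these were the only 2 of the 78 genes with that separation from WT, where 1.32% of all loci had it. The log2 fold change of *Mbnl1* was -0.27±0.11 against HET and -0.19±0.11 against WT, with -0.22 against HET without MUT-2 and -0.09 against WT without WT-3. *Mbnl2* measured 30.5, 21.9 and 30.0 FPKM in WT, 23.2, 23.1 and 27.2 in HET, and 27.7, 27.4 and 20.9 in MUT. *Mbnl3*, on chromosome X, measured 6.43, 6.19 and 8.06 FPKM in WT, 5.20, 5.03 and 7.64 in HET, and 6.53, 5.54 and 6.06 in MUT. Neither separated any pair of genotypes, and MUT against HET was 0.04±0.15 for *Mbnl2* and 0.03±0.16 for *Mbnl3*. HET-3, which held muscle RNA, was the highest HET library for each of the 3 genes, and the part of muscle in that was not tested. RBFOX2, which binds GCATG in introns beside exons, and CELF1, which binds GU-rich RNA, followed another order. *Rbfox2* measured 42.5, 33.4 and 33.1 FPKM in WT, 32.4, 33.8 and 37.0 in HET, and 42.4, 37.3 and 35.1 in MUT. *Celf1* measured 65.9, 54.7 and 58.7 FPKM in WT, 58.3, 56.3 and 64.3 in HET, and 68.3, 59.7 and 57.2 in MUT. WT-1 and MUT-1 were the 2 highest libraries for both, and MUT against HET was 0.15±0.12 and 0.05±0.12.

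The 29 *Rbm* genes are a group by their RNA-binding motif rather than by one role. In MUT against HET 20 were lower and 9 higher, with a median of -0.10, 1 of them lower at an unadjusted p under 0.05, against 54.1% and 2.13% of all loci for direction and p. The median was -0.04 without MUT-2. The gene was *Rbm5*, a regulator of exon skipping in apoptosis genes, at 46.5, 49.6 and 58.9 FPKM in WT, 54.3, 52.4 and 55.4 in HET, and 46.4, 36.8 and 48.4 in MUT. MUT and HET did not overlap, MUT and WT did, and the log2 fold change was -0.30±0.13, or -0.19 without MUT-2. *Rbm12b2* measured 5.96, 6.15 and 7.94 FPKM in WT, 7.02, 6.51 and 7.57 in HET, and 5.50, 5.40 and 6.18 in MUT. It too had all MUT libraries below all HET libraries (-0.26±0.13), as did *Rbm4b* (-0.22±0.12) and *Rbm43* (-0.10±0.13), where 4.44% of all loci did. *Rbm28*, a nucleolar protein, measured 22.9, 25.0 and 28.7 FPKM in WT, 25.7, 23.0 and 27.4 in HET, and 22.5, 18.6 and 24.2 in MUT, where HET and MUT overlapped (-0.22±0.13).

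In the other direction, *Rbm15b*, an adaptor of the m6A methyltransferase complex, measured 37.0, 34.6 and 27.7 FPKM in WT, 33.6, 27.6 and 31.7 in HET, and 38.5, 40.5 and 33.8 in MUT. Its MUT libraries were all above its HET libraries, MUT-2 was its highest, and the log2 fold change was 0.27±0.13. *Rbm15*, its paralog in the same complex, measured 8.88, 5.69 and 7.49 FPKM in WT, 4.83, 4.84 and 7.98 in HET, and 8.34, 6.71 and 5.18 in MUT. The genotypes overlapped for *Rbm15*, with 0.18±0.21 for MUT against HET and -0.29±0.21 for HET against WT, the latter from -0.16 without WT-1 to -0.50 without HET-3. *Rbm22*, a protein of the active spliceosome, measured 39.2, 36.1 and 26.4 FPKM in WT, 35.8, 36.6 and 31.7 in HET, and 41.8, 33.8 and 33.5 in MUT, and *Rbm47* measured 11.4, 7.93 and 8.81 FPKM in WT, 8.20, 9.30 and 6.50 in HET, and 9.71, 8.22 and 7.02 in MUT. Both overlapped between genotypes, with MUT against HET values of 0.06±0.15 and 0.05±0.16.

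*Rbm3*, a cold-inducible protein and the most abundant of the family, measured 204, 248 and 244 FPKM in WT, 200, 236 and 242 in HET, and 208, 225 and 263 in MUT. WT-1, HET-1 and MUT-1 were the 3 lowest libraries, and MUT against HET was 0.03±0.14. An antisense gene, *Rbm3os*, lies at the same locus with 0.694 to 1.26 FPKM. *Rbm39*, a coactivator related to U2AF, measured 162, 175 and 223 FPKM in WT, 194, 176 and 197 in HET, and 164, 159 and 180 in MUT (-0.17±0.14). *Rbm42* measured 48.9, 58.1 and 46.2 FPKM in WT, 65.9, 68.8 and 53.0 in HET, and 54.5, 45.0 and 59.0 in MUT. Its HET against WT value, 0.29±0.14, was the highest of the 78 genes in that comparison, although HET-3 lay within the WT range.

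Beside *Srsf2*, 2 *Rbm* loci had every HET library above every WT library, which 2.06% of all loci had. *Rbm17* (SPF45), a protein of 3′ splice site choice, measured 61.3, 68.3 and 67.7 FPKM in WT, 75.6, 71.4 and 68.5 in HET, and 62.2, 56.7 and 69.6 in MUT. The joined locus of *Rbm14* and *Rbm4*, a coactivator and a splicing factor whose reads cannot be told apart here, measured 60.1, 65.8 and 58.2 FPKM in WT, 69.9, 67.5 and 65.9 in HET, and 61.9, 53.3 and 70.0 in MUT. The margins were small (68.5 against 68.3 and 65.9 against 65.8 FPKM), the log2 fold changes of HET against WT were 0.13±0.11 (0.08 without WT-1) and 0.14±0.12, and MUT overlapped both other genotypes at both loci. Loci named for several genes made up 6 of the 78, the others being those of *Rbm26*, *Rbm12* and *Hnrnpa3*, with *Clk2* and *Hnrnpa1* named above. Of the other 72 genes, 12 (16.7%) have a value of their own over an interval that the table also gives to other genes, as do 19.8% of all loci tested that carry a single name. *Ptbp1* shares its interval (chr10:79697305-80369637) with 48 other rows, *Cirbp* among them, *Srrm2* shares its own with *Tceb2* (mean 462 FPKM) and *Rbm10* with *Ndufb11*. *Hnrnpk*, *Hnrnph3*, *Srsf4*, *Rbfox2* and *Rbm3* are also among the 12, and how reads were divided between genes of 1 interval is not given in the sources used here.

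**Figure D3:**
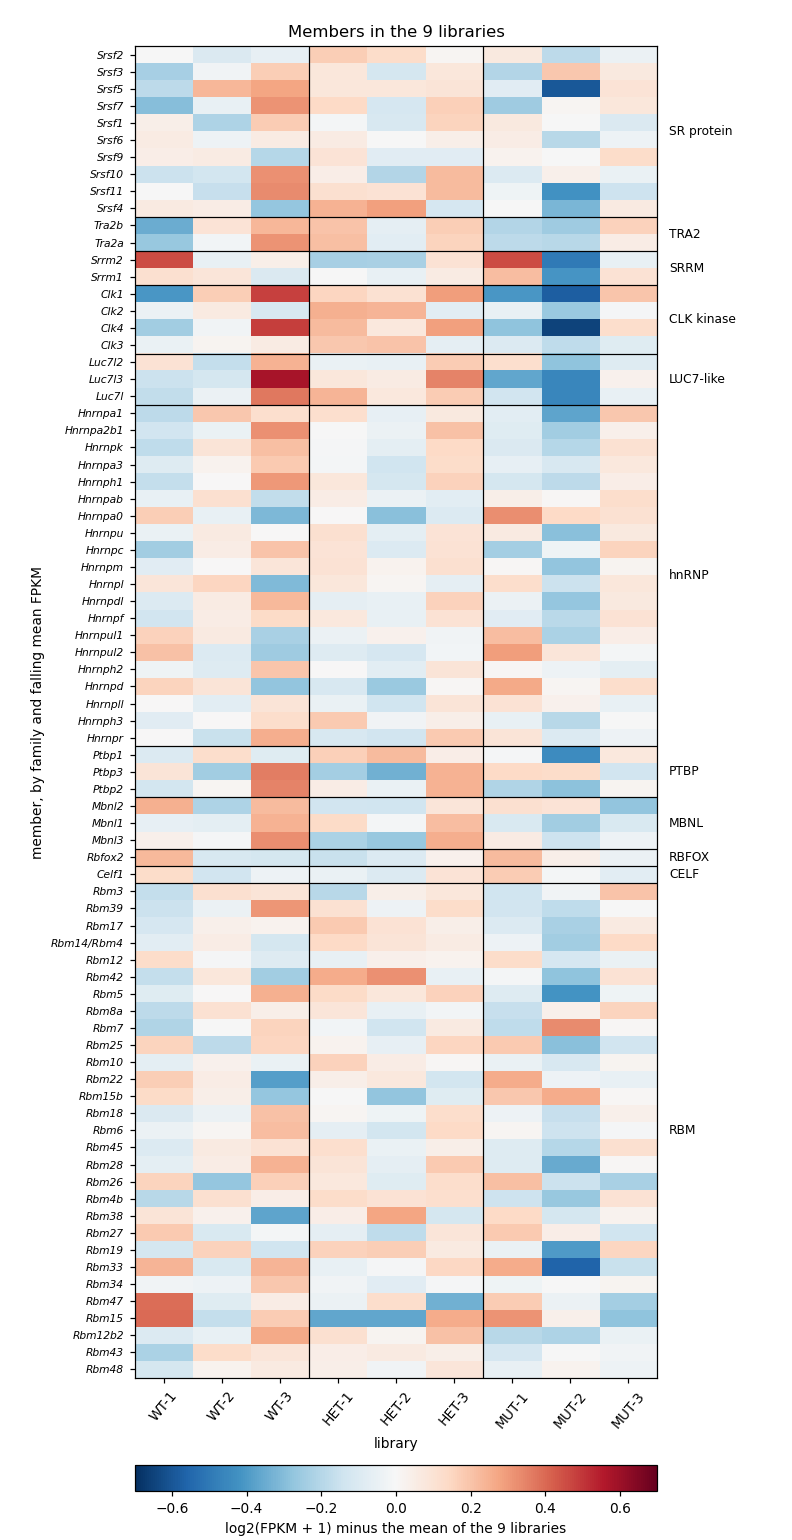
Each row is 1 of the 78 genes by family and falling mean FPKM, each column a library, and the colour is log2(FPKM + 1) minus the gene's mean over the 9 libraries (blue below 0, red above). The MUT-2 column is blue for most genes and the WT-3 column is red for many, while *Hnrnpa0*, *Hnrnpd* and *Rbm22* are blue in WT-3.

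Libraries of the same genotype differed from each other in this set. MUT-2 was the lowest of the 9 libraries for 42 of the 78 genes (53.8%), against 18.6% of all loci, and WT-3 was the highest for 33 (42.3%), against 21.2%. The median deviation of the 78 genes from their own means was -0.06, 0.00 and 0.13 in the WT libraries, 0.06, -0.05 and 0.09 in HET, and -0.03, -0.18 and 0.02 in MUT on the log2 scale. Only MUT-2 of the MUT libraries lay below the lowest HET value, and the WT libraries spanned a wider range than HET. For the CLK kinases the median was -0.42 in MUT-2 and 0.27 in WT-3, and for the LUC7-like genes -0.46 and 0.37. Among the named genes whose MUT against HET value moved by over 1.5 times with 1 library left out, *Srsf2* was -0.09, *Srsf4* -0.11, *Tra2b* -0.13, *Hnrnpa2b1* -0.08, *Luc7l2* -0.01 and *Rbm28* -0.11 without MUT-2. Without MUT-1, *Hnrnpul2* was 0.11, *Rbfox2* 0.07 and *Rbm15* 0.035, and *Ptbp3* was 0.04 without HET-2. The relative depth of MUT-2, read from the spacing of low FPKM, was 1.1, and its summed FPKM over all loci was 505202, where the other libraries had 453753 to 545598. Its nuclear RNA sum was the lowest, as given above, and the part of that in these values was not tested. In WT-3 the deviation of all loci from their own means fell by 0.22 on the log2 scale per 10 percentage points of GC content, a steeper slope than in any other library, and the 78 genes have a median GC content of 46.6% against 51.0% for all loci. Once a GC trend was removed from every library, the median deviation of the set was 0.02 in WT-3 and -0.16 in MUT-2. The corrected medians were 0.22 and -0.45 for the CLK kinases and 0.35 and -0.41 for the LUC7-like genes in these 2 libraries.

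**Figure D4:**
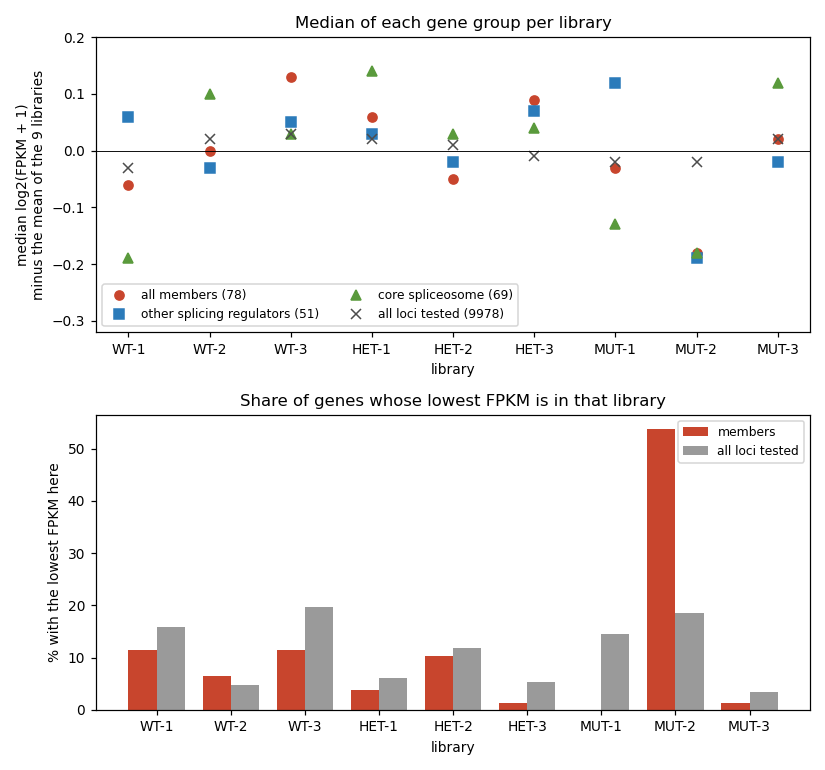
Upper panel, median log2(FPKM + 1) minus the gene's mean (vertical axis) in each library for the 78 genes, other splicing regulators, the core spliceosome and all loci tested. Lower panel, the percentage of genes whose lowest FPKM is in that library, 53.8% of the 78 genes and 18.6% of all loci in MUT-2.

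Other splicing genes give the frame for these families. Of 51 further regulators above the minimum, from a list of 59 such as *Esrp1* and the SR kinases SRPK, 34 had a lower and 17 a higher MUT mean against HET, at a median of -0.07, 2 of them (3.92%) lower at an unadjusted p under 0.05, against 2.13% of all loci, and none at an adjusted p under 0.05 in limma. Over all loci 54.1% were lower in MUT than in HET. MUT-2 was the lowest library for 54.9% of the 51 regulators, against 18.6% of all loci. *Pnisr*, a speckle protein with RS repeats, measured 34.1, 30.2 and 51.7 FPKM in WT, 34.5, 35.4 and 42.5 in HET, and 30.7, 17.6 and 30.1 in MUT. *Rbmx*, a glycine-rich hnRNP on chromosome X, measured 64.8, 70.3 and 82.7 FPKM in WT, 74.1, 73.0 and 77.8 in HET, and 60.9, 44.6 and 71.0 in MUT. These were the 2, at -0.54±0.23 and -0.37±0.16, or -0.28 and -0.19 without MUT-2, the lowest library for both. They were among 8 of the 51 (15.7%) with all MUT libraries below all HET libraries, against 4.44% of all loci.

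*Scaf1*, an SR-related factor of the RNA polymerase tail, measured 33.9, 27.8 and 22.9 FPKM in WT, 26.4, 23.2 and 26.4 in HET, and 35.6, 28.9 and 30.3 in MUT, above HET in every MUT library (0.31±0.14, or 0.13 corrected for GC content and length together). *Upf1*, the helicase of nonsense-mediated decay, measured 30.4, 24.4 and 18.7 FPKM in WT, 23.1, 21.2 and 22.1 in HET, and 32.0, 21.8 and 24.7 in MUT. It overlapped between genotypes (0.21±0.17, or 0.06 without MUT-1), and WT-1 and MUT-1 were the highest libraries for both genes. The epithelial regulators overlapped between genotypes, with *Esrp1* at 10.3, 11.4 and 9.14 FPKM in WT, 11.1, 11.0 and 10.6 in HET, and 12.0, 7.83 and 10.8 in MUT. *Esrp2* measured 6.28, 4.17 and 5.26 FPKM in WT, 4.95, 6.10 and 4.60 in HET, and 6.34, 6.35 and 5.02 in MUT, and the log2 fold changes of MUT against HET were -0.11±0.14 and 0.15±0.16. That of *Esrp1* turned to 0.06 without MUT-2, and that of *Esrp2* was 0.08 without HET-3.

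*Khdrbs1* (SAM68) measured 98.7, 103 and 81.5 FPKM in WT, 97.5, 94.2 and 97.7 in HET, and 109, 90.9 and 104 in MUT. *Qk*, which acts in splicing and circular RNA formation, measured 80.6, 56.0 and 67.6 FPKM in WT, 60.3, 56.4 and 72.6 in HET, and 83.4, 72.4 and 57.3 in MUT. *Cirbp*, a cold-inducible protein like RBM3, measured 65.3, 64.3 and 59.9 FPKM in WT, 52.2, 71.5 and 59.6 in HET, and 60.3, 40.9 and 66.6 in MUT. All 3 overlapped between MUT and HET, with 0.06±0.12, 0.16±0.17 and -0.14±0.17. The values of *Khdrbs1* and *Qk* were 0.01 and 0.04 without MUT-1, that of *Cirbp* turned to 0.06 without MUT-2, and MUT-2 was the lowest library for *Cirbp* alone among them. Of 69 core spliceosome genes, which include those of the snRNP particles, 57 had a lower MUT mean against HET (median -0.13). In HET against WT 59 of them were higher, with a median of 0.09. Over all loci 54.1% were lower in MUT than in HET and 52.5% higher in HET than in WT. The core genes split their lowest library between MUT-2 (37.7%, against 18.6% of all loci) and WT-1 (36.2%, against 15.8%). WT-1 was lowest for 11.5% of the 78 regulators. No core gene passed an adjusted p of 0.05 in limma, and 2 (2.9%) were lower in MUT than in HET at an unadjusted p under 0.05, close to the 2.13% of all loci.

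Some annotated features were not used in choosing the 78 genes. In the GENCODE M21 annotation, 46 of them (59%) had a transcript annotated to nonsense-mediated decay, against 29.8% of all loci tested, 34.8% of the core spliceosome and 54.9% of the other splicing regulators. All CLK, LUC7-like, *Tra2*, *Srrm* and *Ptbp* genes had one, 9 of 10 SR genes did, 50% of the hnRNP genes and 44.8% of the *Rbm* genes did, and no *Mbnl*, *Rbfox* or *Celf* gene of the set did. A transcript with a retained intron was annotated for 79.5%, against 62.1% of all loci, 78.3% of the core spliceosome and 74.5% of the other regulators. Gene FPKM does not separate such transcripts from the coding ones. Median transcript length was 2022 bases for the set and 2073 for all loci.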

How the data were processed

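Total RNA of 9 whole E15.5 kidneys was made into stranded mRNA libraries. FPKM were made by the authors with Cuffdiff from STAR alignments and a Cufflinks assembly, on mm10 per the submitters' processing notes, which give no versions. The deposited FPKM entered without rescaling. The strand setting and annotation of the counting are not given in the sources used here. The authors' mean columns for each genotype were not used.

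Loci with a mean of at least 5 FPKM over the 9 libraries entered 1 limma model (version 3.58.1, R 4.3.3) of log2(FPKM + 1) on genotype over all 9 libraries, with eBayes and its trend option. Tests were two-sided, with Benjamini-Hochberg adjustment over 9978 loci and a threshold of 0.05. Single values were also compared with exact permutation tests, which cannot go below 0.1. The steps were tested on simulated data. Starts in the table count from 0 and are printed from 1. Promoters are from RefSeq, and GC content, length and transcript types from GENCODE M21. Tables and plots used Python 3.11.15, pandas 2.3.3, numpy 2.4.6, scipy 1.17.1 and matplotlib 3.10.9.

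The genes and lists were chosen with earlier results of these data known. Values by library are given for every gene of the small families, for the 3 most abundant SR, hnRNP and *Rbm* genes and for the 2 with the smallest p in each direction and comparison, for *Esrp1*, *Esrp2*, *Khdrbs1*, *Cirbp* and *Qk*, and for the 2 other regulators with the smallest p in each direction. *Rbm4b* and *Rbm43*, where named for separation of genotypes, were chosen after their values were seen. Families are described by counts and medians, without a test. Alternatives were pseudocounts of 0.1 and 3, rescaling by median ratio or quantiles, other minimums of FPKM, 6 libraries only, a replicate block, GC correction (spline with 5 degrees of freedom), no trend, no X or Y loci, no joined loci, and each library left out.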

Additional observations from a re-analysis of the deposited data

How the results depend on the processing

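Precision rests on 3 libraries per genotype with read numbers unknown. No gene of the set passed an adjusted p of 0.05 in any comparison under any of the 24 alternatives, and the cause of the changes below was not tested. In MUT against HET the count of genes lower at an unadjusted p under 0.05 was 6, where 2.13% of all loci were. It was 12 under GC correction, with or without the replicate block, and from 0 to 10 with 1 library left out. The shares of all loci in those alternatives are not given here, so the counts of the set there have no baseline. Loci with an adjusted p under 0.05 were 0 to 1 in MUT against HET and HET against WT and 0 to 2 in MUT against WT with 1 library left out, and 1 in MUT against WT with no FPKM minimum. Genes higher in MUT than in WT numbered 17 to 31 with 1 library left out. Genes lower in HET than in WT numbered 21 under GC correction, with or without the block, and 20 to 43 with 1 library left out. The median of the set in MUT against HET stayed below 0, from -0.098 to -0.058 over the other 15 alternatives and from -0.133 to -0.034 with 1 library left out.

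Single values near 0 changed sign in MUT against HET. That of *Srrm1* was 0.008 under quantile normalization and 0.009 under GC correction, of *Mbnl3* -0.003 and of *Srsf3* -0.076 under GC correction, each the same with the replicate block. Under correction for GC content and length, chosen after seeing the data, *Srsf3* was -0.052 and *Celf1* -0.091. With 1 library left out the ranges were -0.157 to 0.157 for *Srrm1*, -0.154 to 0.322 for *Srrm2*, -0.059 to 0.2 for *Mbnl3*, -0.028 to 0.168 for *Mbnl2*, -0.025 to 0.103 for *Celf1*, -0.082 to 0.116 for *Srsf3*, -0.264 to 0.013 for *Hnrnpa1*, -0.175 to 0.000 for *Hnrnpdl*, -0.059 to 0.108 for *Rbm3*, -0.040 to 0.116 for *Rbm22* and -0.073 to 0.155 for *Rbm47*.

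Same-numbered libraries of different genotypes did not deviate together in the median of their pairs. The correlation of their deviations had a median of -0.05 over 9 pairs, against 0.02 over 18 pairs of different numbers. It ran from -0.32 to 0.56 over the 9 pairs, the highest being WT-1 with MUT-1. The numbers were not taken as a pairing. With the replicate block, 9 genes of the set were lower in MUT than in HET at an unadjusted p under 0.05, 0 loci had an adjusted p under 0.05, and the median of the set was -0.097. The share of all loci lower at that unadjusted p in the blocked fit is not given here, so the count of 9 has no baseline.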
